A study of Oryza sativa with 6 samples.

Results

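ART1 and OsWRKY22 are transcription factors of rice that act in tolerance of aluminium (Al). These 2 genes, of 37390 named in the annotation, were found through its transcript assignments, by the identifiers LOC_Os12g07280 (Os12g0170400) for ART1 and LOC_Os01g60490 (Os01g0820400) for OsWRKY22. This gave 3 probe sets of 57258, of which 1 belonged to ART1 and 2 to OsWRKY22. RNA came from root tips (0 to 1 cm) of a Japonica rice, from seedlings 5 d old kept on 0.5 mM CaCl2, and was hybridised to 6 Affymetrix rice arrays. One group of 3 arrays held tips after 6 h in that solution with 50 µM Al at pH 4.5, and the other group of 3 arrays held tips before Al. The cultivar is given only as Japonica, and neither group carries a mutation or transgene per the labels. The arrays used here hold no tips that stayed 6 h in solution free of Al, and the labels leave out the pH before Al, so Al, time in solution and a possible pH step cannot be told apart. The labels call the arrays of a group biological repeats without saying that they were separate cultures, so the spread behind each p-value is that between these samples and may be technical.

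Al ions injure the root tip in acid soil, and rice withstands them better than most cereals. ART1 is a zinc finger protein of the C2H2 type, present in root nuclei with and without Al, and mutants that lack it fail to raise a set of tolerance genes when Al arrives. These genes encode transporters that move Al into the cell and on to the vacuole, an ABC transporter that exports a sugar nucleotide to the wall, and exporters of citrate, which binds Al outside the root. OsWRKY22 belongs to the WRKY family, whose members bind W-box elements in promoters, and it is known to promote the Al-induced expression of the citrate exporter gene OsFRDL4. The comparison asked how the transcripts of the 2 regulators, rather than their activity, stood after Al.

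The arrays had similar numbers of present calls. Between 24836 and 25492 probe sets were called present per array. The trimmed means of the linear signals were 497.0 to 497.2, which scaling of the arrays can set, so they do not show likeness. The median log2 signals ran from 4.99 to 5.29, and 1363 to 2184 probe sets per array had a log2 signal of 0. All 5 root markers (OsPIN2, OsSCR1, OsSHR1, QHB and Lsi1) were called present on all 6 arrays. 2 of them fell after Al, OsPIN2 by 0.35 and OsSCR1 by 0.93 on the log2 scale, and none rose. Of 4 Rubisco small subunit genes, markers of green tissue, 3 were measured, and 2 of these fell. Of all tested genes, 17.5% were lower after Al. Their part in the results below was not tested, and in bulk tips fewer cells of a type and less RNA per cell cannot be told apart.

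OsWRKY22 was detected on every array after Al and on none before Al. Its main probe set aligns to chromosome 1, 35308316 to 35312296, plus strand, in the coordinates of the deposited annotation, which names no build, and 11 probes are assigned to the transcript. Its log2 signals were 8.71, 8.56 and 8.05 after Al and 1.15, 0.83 and 1.08 before Al. All 3 arrays after Al were called present and all 3 before Al absent, and the groups lay far apart. The means were 8.44 ± 0.35 after Al and 1.02 ± 0.17 before Al (SD, n = 3 each). The signal was at least 53.1-fold higher after Al, where the bound sets each array before Al at the lowest signal called present on it. That floor averaged 2.71 on the log2 scale, below the median of 2.97 before Al for probe sets called present on no array. It is thus no detection limit, and the bound holds only for that floor. The measured log2 change was 7.42 ± 0.36 (SE), with an adjusted p of 4.56e-07 in limma. Both the change and its p use signals called absent before Al. The probe set met the filter for testing only through its arrays after Al. Of 25283 tested probe sets (those called present on at least 3 arrays), 30.2% passed the adjusted p threshold of 0.05, with 14.3% higher and 15.9% lower after Al.

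The measured change of OsWRKY22 was the largest among the tested probe sets, but that place rests partly on its very low signals before Al. With 16 added to the linear signals before taking logs, its log2 change was 4.33, less than the bound, and 27 probe sets changed more. Without replicate 2 before Al 2 probe sets changed more, and without replicate 3 before Al 1 did. On all probe sets of the arrays, 333 were present on 3 arrays after Al and on none before Al, which is 0.582% of 57258. For 328 of these a bound could be set, with a median of 3.04-fold, and 6 had a higher bound than OsWRKY22.

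The second probe set of OsWRKY22 did not show this rise. Its log2 signals were 0.00, 0.10 and 0.32 after Al and 0.36, 0.43 and 0.98 before Al, and it was called absent on all 6 arrays, as were 47.9% of all probe sets (absent or marginal). It was too dim to be tested, and when every probe set was tested, dim ones included, its adjusted p in limma was 0.645. It is tied to the gene by overlap only. No probe of it is assigned to a transcript, and 179 of the 1620 bases it spans (35303224 to 35304843) fall inside the annotated gene Os01g0820400 (35304665 to 35312296). The nearest base of the other probe set lies 3473 bases further on.

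ART1 rose slightly. Its only probe set (chromosome 12, 3579409 to 3581837, plus strand) is described in the annotation as a TRANSPARENT TESTA 1 protein, and 11 probes are assigned to LOC_Os12g07280. Its log2 signals were 9.91, 10.01 and 10.18 after Al and 9.68, 9.56 and 9.81 before Al, and all 6 arrays were called present. Every array after Al lay above every array before Al, by a gap of 0.11 between the nearest arrays. Such a separation with higher signal after Al was found for 19.6% of the tested probe sets. The means were 10.04 ± 0.14 after Al and 9.68 ± 0.12 before Al (SD, n = 3 each), a rise of 0.35 ± 0.10 (SE) on the log2 scale, or 1.28-fold, with an adjusted p of 0.0210 in limma. The 95% interval of the fold ran from 1.10 to 1.48.

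Many probe sets rose more than ART1. A larger rise was measured for 3888 tested probe sets (15.4%) and a larger change in either direction for 34.2%, while the median change of all tested probe sets was -0.04. The call was lost in limma with an adjusted p of 0.0639 without replicate 3 after Al, of 0.0559 without replicate 1 before Al and of 0.0802 without replicate 2 before Al. It was also lost without the intensity trend in limma, at an adjusted p of 0.0570. In the authors' deposited table, ART1 had an unadjusted p of 0.0300 and a fold of 1.28.

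**Figure D1:**
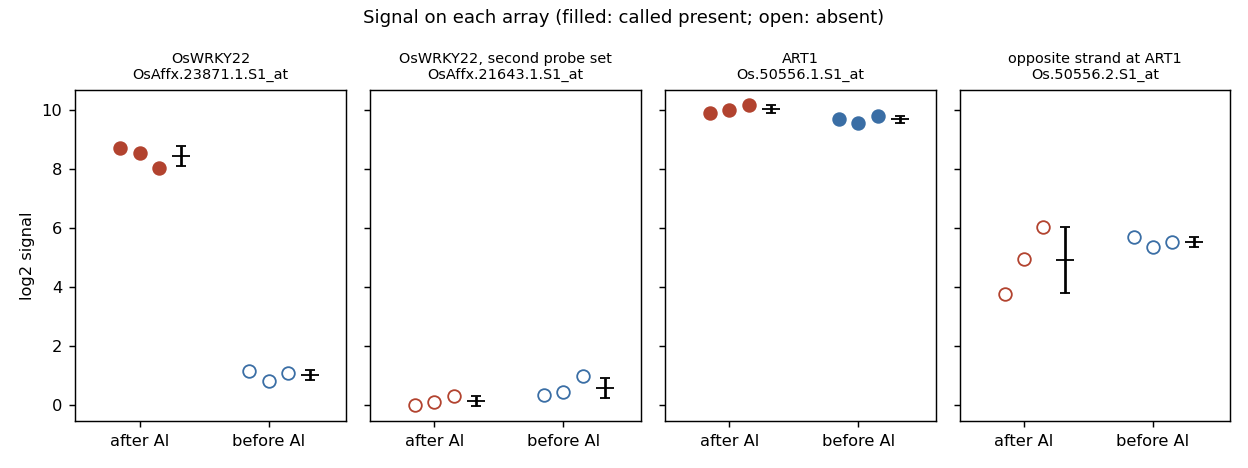
Log2 signal on each array (vertical axis) for the probe sets of OsWRKY22 and ART1 and for a probe set on the strand opposite ART1, after Al (red, left) and before Al (blue, right). Filled points were called present and open points absent, and the black mark is the mean ± SD of 3 arrays. The first OsWRKY22 probe set averaged 8.44 after Al and 1.02 before Al, ART1 averaged 10.04 after Al and 9.68 before Al, and the other 2 probe sets were absent on all 6 arrays.

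**Figure D2:**
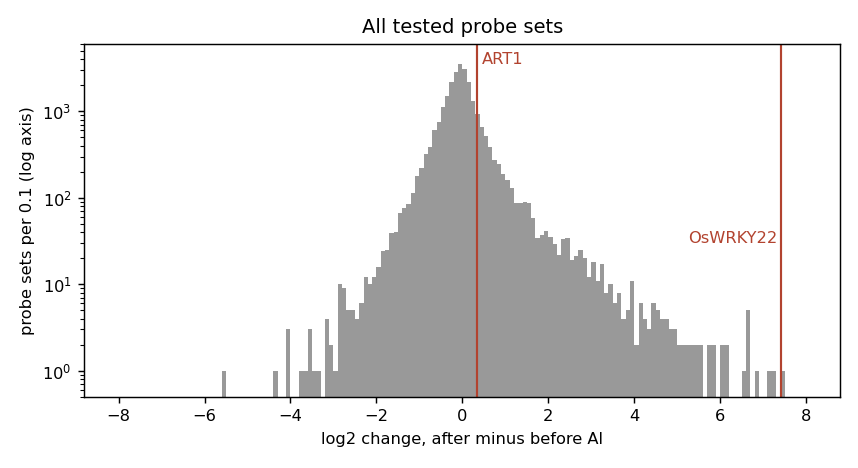
Number of tested probe sets (vertical log axis) in steps of 0.1 of log2 change, after minus before Al, over 25283 probe sets. The red lines mark ART1 at 0.35, where many probe sets lie, and OsWRKY22 at 7.42, the right end of the distribution.

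The 2 regulators were set side by side because earlier results of these arrays had shown this contrast, so its size is a description. The log2 signal of OsWRKY22 minus that of ART1 was -1.20, -1.45 and -2.13 on the arrays after Al, and -8.54, -8.73 and -8.73 on those before Al. Between the groups this difference shifted by 7.07 as measured. The size of the shift is unreliable, since it uses signals of OsWRKY22 called absent before Al, and 3 arrays against 3 cannot give a two-sided exact permutation p below 0.1. With the dim probe set in place of the other one of OsWRKY22 the shift was -0.80.

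Probe sets that could share signal with ART1 were looked at after the values were seen. A probe set on the opposite strand (Os12g0170500, 3580049 to 3581645), has 9 of its 11 probes on the negative strand of the ART1 transcript. Its log2 signals were 3.78, 4.96 and 6.02 after Al and 5.69, 5.34 and 5.53 before Al, absent on all 6 arrays. The groups overlapped, and the spread was wider after Al. Another zinc finger gene, LOC_Os04g08290, has a probe set with 1 probe that also matches ART1. That set gave 6.90, 6.56 and 6.15 after Al and 3.30, 2.90 and 3.03 before Al, yet it was called absent on all 6 arrays. The other probe set of LOC_Os04g08290 gave 6.58, 7.37 and 6.73 after Al and 7.05, 5.07 and 6.18 before Al, also absent throughout, so the sets disagree. Neither passed the filter on present calls, and when every probe set was tested their adjusted p in limma was 0.000982 for the first and 0.386 for the second. LOC_Os08g44830, a zinc finger gene that shares 2 probes with the first of these sets, was present on all 6 arrays. It gave 10.59, 11.25 and 10.97 after Al and 10.20, 10.26 and 10.17 before Al, a rise of 0.73 ± 0.14 (SE) with an adjusted p of 0.00311 in limma. LOC_Os03g62230, a zinc finger gene that shares 1 probe with that same set, was present on 2 arrays after Al and on none before. It gave 6.81, 6.34 and 5.47 after Al and 3.10, 5.96 and 6.30 before Al, and was not tested. ART2 (Os04g0165200), a zinc finger relative that also acts in Al tolerance, matched no probe set by that identifier. Whether LOC_Os04g08290 is the same gene cannot be told from the annotation, so no value is given under the name ART2.

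Known genes of Al tolerance, most of them dependent on ART1, were higher after Al. All 11 genes of an Al tolerance list were higher after Al and none was lower, also at an unadjusted p under 0.05, against 15.9% higher and 17.5% lower of 18992 genes tested. Their median log2 change was 0.97, against -0.04 over all tested genes, and each of the 11 had a larger measured change than ART1, a difference that was not tested. 9 of the 11 are known to depend on ART1, and ASR1 and ASR5 are not on that list. 5 of them rose at least 2-fold, against 5.04% of all genes. The list was drawn up with these results known.

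OsFRDL4, the citrate exporter gene on which OsWRKY22 acts, had log2 signals of 10.53, 10.07 and 10.44 after Al and 5.17, 3.11 and 5.44 before Al. Like OsWRKY22 it was present on the 3 arrays after Al and absent on the 3 before. Its log2 change was 5.78 ± 0.50 (SE). Its signals before Al all lay above the floor, so the fold of 54.8 is the measured ratio to signals called absent and no lower limit. The ratio was 33.0 without replicate 2 before Al and 74.1 without replicate 3 before Al. Of the other genes, STAR1, the ATP-binding subunit of the wall-related ABC transporter, had 13.07, 13.18 and 13.15 after Al and 11.28, 11.33 and 11.21 before Al. STAR1 rose by 1.86 ± 0.06, while STAR2, its membrane subunit, rose by 0.90 ± 0.06 (SE). Nrat1, which takes up Al ions, rose by 0.97 ± 0.05, and OsALS1, which loads them into the vacuole, by 1.00 ± 0.05 (SE). OsFRDL2, a citrate transporter of internal membranes, rose by 1.04 ± 0.07 (SE).

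OsCDT3, a small cysteine-rich peptide, rose by 1.43 ± 0.18, and the expansin OsEXPA10 by 0.52 ± 0.09 (SE). The stress proteins ASR1 and ASR5 rose by 0.94 ± 0.11 and 0.49 ± 0.08 (SE). ASR5 had the smallest change of the 11 and still lay above ART1. OsMGT1, a magnesium transporter, rose by 0.76 ± 0.20 (SE). This call was lost in limma with an adjusted p of 0.0592 without replicate 2 after Al and of 0.0543 without replicate 2 before Al.

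**Figure D3:**
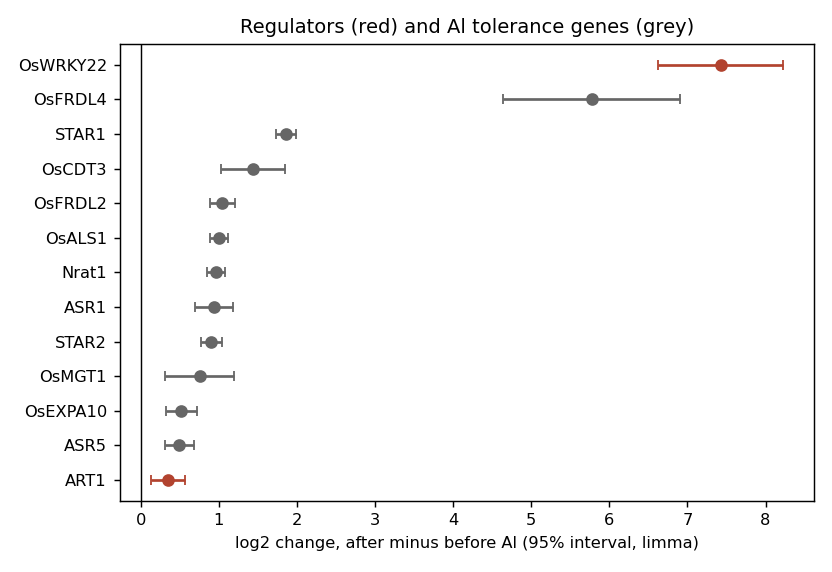
Log2 change, after minus before Al (horizontal axis), with its 95% interval from limma, for OsWRKY22 and ART1 (red) and the 11 Al tolerance genes (grey), ordered by size. ART1 lies at the bottom with 0.35. OsWRKY22 (7.42) and OsFRDL4 (5.78) lie at the top, but both were absent before Al. The bound of at least 53.1-fold for OsWRKY22 and the measured 54.8-fold for OsFRDL4 do not order them.

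The wider list of genes known to depend on ART1 held 31 identifiers, of which 23 had a tested probe set. 18 were higher after Al, 1 was lower and 4 did not pass, against 15.9% higher and 17.5% lower of all genes. Their median log2 change was 1.04, against -0.04 over all tested genes. 20 of the 23 had a larger log2 change than ART1. 9 of these genes are also on the list above. Of the 14 others, 9 were higher and 1 was lower. After OsFRDL4 the largest rises were those of a nitrate reductase gene, LOC_Os02g53130, with 3.21 ± 0.14 (SE), and of Os04g0419100, with 2.97 ± 0.13 (SE). At the other end, the subtilisin-like protease gene LOC_Os10g38080 (Os10g0524600) had 8.06, 7.68 and 7.50 after Al and 8.35, 8.44 and 8.78 before Al, and fell by 0.77 ± 0.17 (SE). The tests of LOC_Os01g46350 (log2 change -0.19 ± 0.13) and LOC_Os09g25850 (0.31 ± 0.18, SE) did not pass.

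Within the WRKY family OsWRKY22 had the largest measured change, but that place rests on signals called absent before Al. The annotation describes 90 genes as WRKY, and 59 had a tested probe set. 26 of them were higher after Al, 3 were lower and 30 did not pass, against the 15.9% and 17.5% of all genes. 20 rose at least 2-fold, against 5.04% of all genes. The median log2 change was 0.37. Next came OsWRKY77 (LOC_Os01g40260), with 8.43, 8.33 and 8.15 after Al and 3.71, 3.48 and 3.51 before Al. Its log2 change was 4.74 ± 0.22 (SE). This is 26.7-fold as measured against signals not called present, which lay above the floor. After Al its mean of 8.30 lay near the 8.44 of OsWRKY22. Before Al the means were 3.57 for OsWRKY77 and 1.02 for OsWRKY22. LOC_Os01g60520, a gene with a WRKY domain, had 8.01, 8.03 and 7.60 after Al and 2.74, 5.13 and 2.42 before Al. It was at least 19.2-fold higher after Al, with a log2 change of 4.45 ± 0.61 (SE). The bound was 14.2-fold without replicate 1 before Al and 32.4-fold without replicate 2 before Al. In all, 6 WRKY genes were present on 3 arrays after Al and on none before Al. The same held for 0.582% of all probe sets. That share is counted over probe sets rather than genes and includes untested ones, so it is lower than a share of tested ones would be.

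ART1 stood sixth when ordered by change with C2H2 genes. Its own description does not name the C2H2 type, so it was set beside the 44 genes whose description does. Of the 20 with a tested probe set, 4 were higher after Al, 5 were lower and 11 did not pass, shares near the 15.9% higher and 17.5% lower of all genes, with a median log2 change of 0.05. 5 of the 20 had a larger change than ART1. Its nearest neighbours in that order were LOC_Os01g09850 with 0.43 ± 0.09 and LOC_Os02g36360 with 0.38 ± 0.09 (SE), both of which rose, and LOC_Os08g37904 with 0.33 ± 0.13 and LOC_Os12g38940 with 0.17 ± 0.26 (SE), which did not pass. All 4 lay within 2 standard errors of the change of ART1. The call of LOC_Os02g36360 was lost in limma without replicate 3 before Al, at an adjusted p of 0.0504, and LOC_Os08g37904 passed without replicate 1 after Al, at 0.0492.

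**Figure D4:**
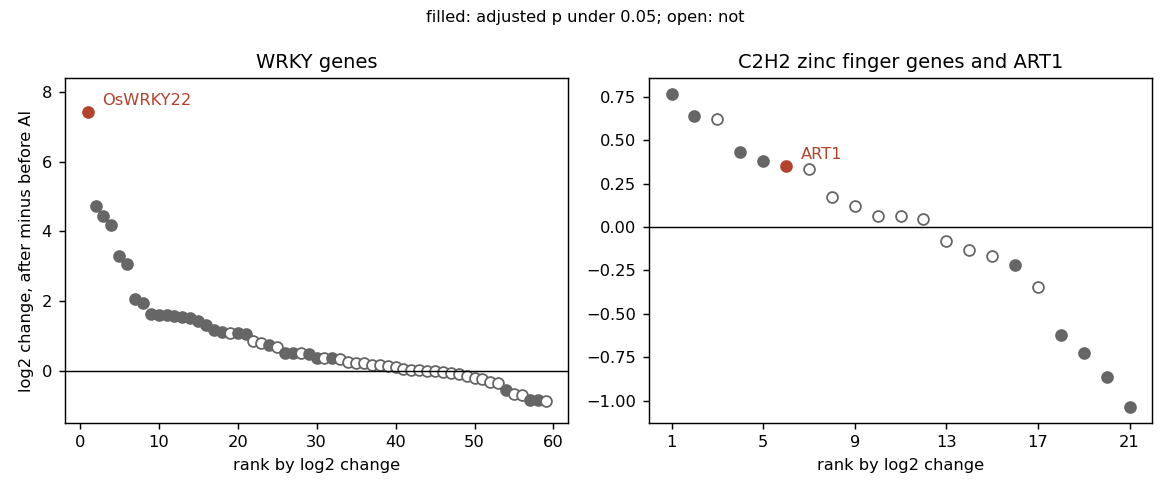
Log2 change, after minus before Al (vertical axes), of the 59 tested WRKY genes (left) and of the 20 tested C2H2 genes with ART1 (right), ordered by rank. Red points are OsWRKY22, first at 7.42, a change that uses signals called absent before Al, and ART1, in sixth place at 0.35. Filled points had an adjusted p under 0.05, and the vertical scales differ.

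Genes near the 2 regulators were listed after the values had been seen, within 100 kb on either side. By the alignment of their probe sets, 22 other genes lay around OsWRKY22, 13 of them tested. Of the 13, 3 were higher and 2 lower after Al, against 15.9% and 17.5% of all genes, with a median log2 change of 0.06. The 13 include LOC_Os04g43922, whose name places it on chromosome 4 although its probe set aligns here. 4 of the 22 were WRKY genes, all on the same side. The closest, LOC_Os01g60520, lay 11.3 kb away, and its rise is given above. OsWRKY20 (LOC_Os01g60540), at 23.4 kb, had 1.37, 0.90 and 1.94 after Al and 1.30, 0.59 and 0.85 before Al and was absent on all 6 arrays. LOC_Os01g60600, at 47.6 kb, had 2 probe sets with log2 changes of 0.55 and 0.37, and neither passed. OsWRKY21 (LOC_Os01g60640), at 77.3 kb, had 7.88, 7.94 and 8.01 after Al and 3.92, 2.30 and 5.04 before Al. It was at least 16.1-fold higher after Al, with a log2 change of 4.19 ± 0.56 (SE), which was 3.46 without replicate 2 before Al and 4.83 without replicate 3 before Al. Of the 4 WRKY genes 2 thus rose with OsWRKY22, and the other 2 were not detected or did not pass.

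Around ART1 lay 32 other genes, 14 of them tested, of which 1 was higher and 3 were lower after Al, against 15.9% and 17.5% of all genes, with a median log2 change of -0.01. The one that rose was the closest on the downstream side, LOC_Os12g07290, described as an alpha-(1,4)-fucosyltransferase. Its probe set begins 0.589 kb beyond that of ART1 on the same strand. It had 10.24, 10.13 and 10.28 after Al and 9.72, 9.53 and 9.67 before Al, a rise of 0.58 ± 0.08 (SE) on the log2 scale. The closest on the other side, LOC_Os12g07270, had a log2 change of -0.50 ± 0.19 (SE) and did not pass.

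**Figure D5:**
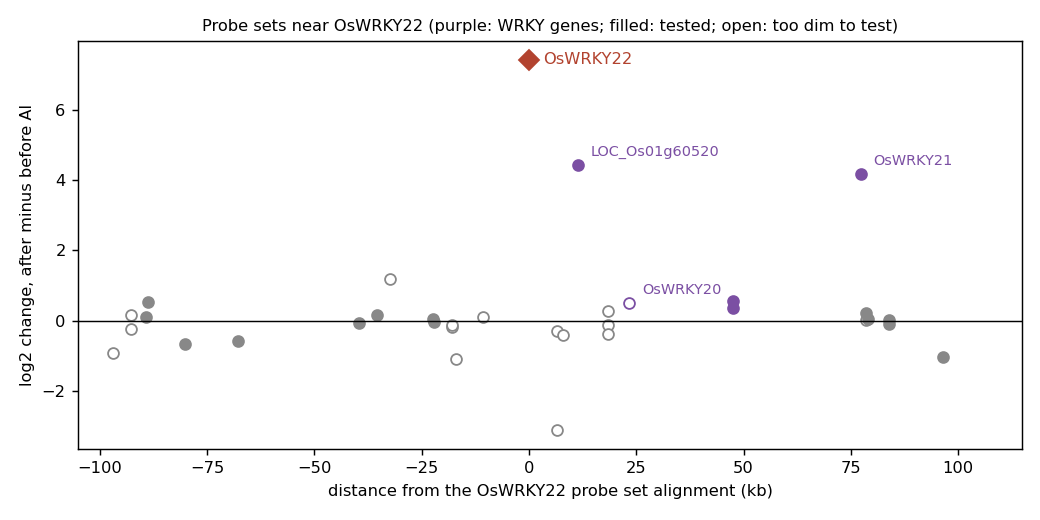
Log2 change, after minus before Al (vertical axis), of probe sets within 100 kb of OsWRKY22, by distance in kb (horizontal axis). The red diamond is OsWRKY22, purple points are WRKY genes, and open points were called present on too few arrays to be tested. LOC_Os01g60520 at 4.45 and OsWRKY21 at 4.19 stand above the other genes.

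Profiles most like each regulator were found by the root mean square difference of log2 signals over the 6 arrays, after each profile was set against its mean before Al. ART1 had many near profiles. 166 of 22970 probe sets of other genes lay within 0.1 of it, and the nearest was LOC_Os10g24070, an expressed protein, at 0.037. Next came LOC_Os01g45640, described as a tat pathway protein, at 0.045, and LOC_Os12g40570, described as WRKY transcription factor 21, at 0.047. This last gene, which differs from LOC_Os01g60640, had 11.57, 11.69 and 11.77 after Al and 11.36, 11.22 and 11.37 before Al. LOC_Os06g07030, a dehydration responsive element binding protein, and LOC_Os07g38230 completed the 5 at 0.050 and 0.055. These are likenesses of single probe sets. Another set of LOC_Os01g45640 had 9.36, 9.32 and 8.68 after Al and 8.90, 8.78 and 8.70 before Al. Its groups overlapped, with an adjusted p of 0.186 in limma. Other sets of LOC_Os10g24070 and LOC_Os06g07030 had log2 changes of 0.31 and 0.41.

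OsWRKY22 had few near profiles, with 1 of the 22970 within 0.5 and 10 within 1. The nearest was LOC_Os07g40320, a got1-like gene, at 0.457, with 11.89, 11.87 and 11.77 after Al and 5.41, 4.68 and 4.85 before Al. That probe set was also present on 3 arrays after Al and on none before. Its signals before Al lay above the floor, so its 116-fold rise is the measured ratio to signals called absent and no lower limit. The gene's other probe set, brighter on each array, had 12.67, 12.47 and 12.34 after Al and 7.62, 7.79 and 7.55 before Al. Replicates 1 and 2 before Al detected that other probe set, and its rise was 28.6-fold. The size thus differed between the sets. The F-box gene LOC_Os03g43770 followed at 0.554 and was at least 19.1-fold higher after Al, a bound of 15.9-fold to 23.8-fold with 1 array left out. A cytochrome P450 72A1 gene (LOC_Os01g43750) lay at 0.581, an ABA-responsive gene (LOC_Os12g29400) at 0.623 and an abscisic stress ripening gene (LOC_Os01g72900) at 0.631. These distances are descriptions over 6 arrays and are ruled by the size of the change between the groups.

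Clock genes were measured beside the regulators because the Al treatment lasted 6 h and the labels give no time of day for either group. None of 7 (OsLHY, OsPRR1, OsPRR73, OsPRR95, OsPRR37, OsGI and OsELF3) passed in limma, with 1 higher and 1 lower at an unadjusted p under 0.05. Their log2 changes ran from -0.18 for OsPRR37 to 0.17 for OsLHY, smaller in size than the 0.35 of ART1. The part of time of day in the changes of the regulators was not tested. Leaving out 1 array brought OsLHY past the threshold without replicate 1 before Al, at an adjusted p of 0.0388 in limma, and OsGI without replicate 3 after Al, at 0.0468.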

How the data were processed

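RNA of 6 arrays (3 after Al, 3 before Al) was analysed. The deposited log2 signals were made with MAS5, per the submitters' processing notes, which state neither its version nor the scaling target. Per the file headers, a second table with the same log2 signals also holds detection calls, an unadjusted p-value and a fold change (a ratio of linear signals) for each probe set. Genes were named through that table's annotation, in which 45882 probe sets had 1 gene, 1416 had several and 9960 had none. Symbols were added from prior knowledge.

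Probe sets with a present call on 3 or more of the 6 arrays were tested with limma 3.58.1 in R 4.3.3 (lmFit, eBayes with an intensity trend, two-sided), with Benjamini-Hochberg adjustment over all 25283, a threshold of 0.05 and no covariate. Residual degrees of freedom were 4, or 9.47 after sharing the spread. The test was tried on simulated data. A gene was represented by its probe set with the highest mean signal. Where no array of a group had a present call the fold is a bound. Each array there took its own signal or the lowest present one on it, whichever was higher. Where all its signals in that group lay above these, the fold is the measured one and no lower limit. Those lowest present signals were 2.07 to 2.98 on the log2 scale. Such a bound holds only for that floor, which is not a detection limit. The number of arrays limits the precision.

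Named genes were all probe sets of both regulators, the Al tolerance and clock lists, the 3 largest and 3 smallest changes of the ART1-dependent list, the 5 nearest profiles of each regulator and 2 family neighbours on either side. The genes near the regulators and the relatives of ART1 were named after their values were seen. The members and lists were chosen with earlier results of these data known. Alternatives changed the filter, trend, scaling, offset, representative probe set, replicate block and p-values, and left out each array in turn. Without a sequence table, no sequences are shown.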

Additional observations from a re-analysis of the deposited data

How the results depend on the processing

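The main probe set of OsWRKY22 kept its direction and its call in limma under every alternative that could be run, and with the adjusted deposited p-values. It met the filter for testing only through its arrays after Al, and it was chosen with its rise known. The alternatives do not test that choice, and the filter for presence on all 6 arrays gave no value for it. Its log2 change ran from 7.29 to 7.62 when 1 array was left out, and its bound, an alternative chosen after seeing the data, from 46.1-fold to 60.7-fold. ART1 kept its log2 change of 0.35 but not its call without the intensity trend and with the deposited p-values after adjustment (adjusted p 0.120, limma not used), and its change ran from 0.28 to 0.41 with 1 array left out. The dim probe set of OsWRKY22 had a log2 change of -0.45, -0.035 with 16 added to the signals and -0.56 to -0.26 with 1 array left out. The shift of OsWRKY22 against ART1 reversed to -0.80 with that probe set, and ran from 6.88 to 7.34 with 1 array left out. WRKY genes that were lower numbered 3, but 5 with presence on all 6 arrays and 5 with the replicate block. C2H2 genes that were higher numbered 4, and 2 to 5 with 1 array left out, and clock genes that were higher 0, and 0 to 1. Same-numbered arrays of the 2 groups deviated together only weakly (r = 0.0696, 0.0011 and 0.0865), so the numbers were not taken to pair them. These are the numbers of the titles. The array names number the arrays after Al from 2, and by that numbering the 2 shared pairs had r = 0.0212 and 0.0069. With the replicate block ART1 had a log2 change of 0.35 and an adjusted p of 0.0111 in limma. Of 412 values of genes on the Al tolerance, ART1-dependent and clock lists, 403 kept their side of the threshold, 5 passed only under the alternative and 4 no longer passed. Of 96 values of nearest profiles and family neighbours with 1 array left out, 5 changed side, 1 each for 5 genes, all of them neighbours of ART1 in profile or family order. Signals near those of absent probe sets have no reliable size, so folds from them are given as bounds, or as measured where the floor set no limit.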
